A study of Mus musculus with 5 samples.

Results

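The 34 genes described here encode proteins that bring fatty acids into the heart muscle cell and burn them: uptake, activation to acyl-CoA, the carnitine shuttle, malonyl-CoA control, beta-oxidation, electron transfer, thioesterases and lipolysis. They were chosen by gene symbol, and all 34 were found among the 41128 genes of the table. Nuclear RNA was measured in 5 libraries of heart muscle nuclei from FVB mice aged 8 weeks, taken 7 days after the left anterior descending artery was tied off for good. The border zone group, the microdissected muscle beside the infarct, holds mice 32, 34 and 40. The remote group, muscle of the same kind of infarcted heart away from the infarct, holds mice 40 and 43, so only mouse 40 gave both, and hearts without an infarct were not analysed here. Nuclei were stained for PCM-1, a centrosomal protein around cardiomyocyte nuclei, and sorted, and cDNA was made from an input of 500 pg. Whether each library came from pooled tissue is not given in the sources used here.

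Long-chain fatty acids are the main fuel of the adult heart. Lipoprotein lipase frees them from triglyceride, CD36 and fatty acid transport proteins carry them in, and acyl-CoA synthetases trap them as acyl-CoA. The carnitine shuttle moves the acyl group into the mitochondrion, malonyl-CoA restrains that entry, and each turn of beta-oxidation shortens the chain and passes electrons through the electron transfer flavoprotein to the respiratory chain. Lower expression of many of these genes is a known feature of failing hearts.

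The libraries held 18725791 to 25014205 recovered reads in the border zone and 11324539 to 13440421 in remote muscle. At equal depth, 15843 to 19602 genes were expected in a border zone library and 22386 to 22670 in a remote one, and the 10 most abundant genes took 45.6% to 60.3% of border zone reads and 34.4% to 43.5% of remote reads. This difference in library makeup ran with the groups, and its part in the results below was not tested. All 10 cardiomyocyte markers were present in every library. In normalized reads (reads divided by a size factor of each library), 8 of the 10 had a positive log2 change, border zone over remote. Their median was 0.66, against -0.21 for all tested genes. Tnnt2, Tnni3, Ryr2 and Ttn were higher without overlap between the groups, and Pln was lower without overlap. The 8 adipocyte markers summed to 0 to 36.5 normalized reads in the border zone and 0.755 to 10.2 in remote muscle. Adipoq, Plin1 and Lep were at 0 in all 5 libraries. The 8 endothelial markers summed to 288 to 629 and 385 to 467 normalized reads, and the 8 macrophage markers to 173 to 218 and 234 to 316. The 8 smooth muscle and pericyte markers summed to 6312 to 13105 normalized reads in the border zone and 1087 to 2631 in remote muscle, mostly from Cspg4, with 2 of 8 higher without overlap (Cspg4 and Pdgfrb) and Rgs5 lower without overlap. The 8 fibroblast markers summed to 3386 to 5142 normalized reads in the border zone and 1975 to 2761 in remote muscle, with 2 of 8 higher without overlap (Col1a1 and Col3a1) and Dcn lower without overlap. In RPM (recovered reads scaled to a common library total), the fibroblast sum was lower in the border zone, at 118 to 231 against 239 to 272. The macrophage sum was lower too, and so without overlap were 49.1% of all tested genes under total-count scaling. The smooth muscle and pericyte sum was higher, at 331 to 431 RPM against 131 to 259 RPM in remote muscle. The cardiomyocyte, endothelial and adipocyte sums overlapped in RPM. The part of these cell types in the results was not tested. Fewer nuclei of a type and less RNA per nucleus cannot be told apart in such bulk samples.

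Most fatty acid genes stood lower in the border zone, but no member passed the main test. Of the 32 members with a mean of at least 10 normalized reads, 25 had a negative log2 change, against 55% of all 14989 tested genes. The median member had a log2 change of -0.81, against -0.21 for all tested genes, a gap of -0.59 (border zone over remote, on the log2(value + 1) scale). In 12 members every border zone library lay below both remote libraries (37.5% of the tested members, against 20.3% of all tested genes). In 3 members every border zone library lay above them (9.38%, against 18.9%). A log2 change below -1 was found in 15 members (46.9%, against 31.3% of all tested genes), and one above 1 in 1 member (3.12%, against 21.8%). Leaving out 1 library at a time left 22 to 27 members negative. All 32 were negative under total-count scaling, which moved the median of all tested genes by -1.37, so changes under it are read against that shift.

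By limma with Benjamini-Hochberg adjustment over all tested genes, 0 members passed in either direction, as did 0% of all tested genes. At an unadjusted limma p under 0.05, 7 members were lower (21.9%, against 7.87% of all tested genes) and 1 was higher (3.12%, against 10.2%). The count test edgeR also called 0 members, and DESeq2 on the recovered reads called 2 lower and 0 higher. This DESeq2 fit gave nearly the same values as the authors' deposited table (for Hadhb, a log2 change of -2.75 in both). Their calls are therefore not independent of each other. In the authors' deposited table, Ces1d and Hadhb, 2 of the 33 members with an adjusted p, were lower and 0 were higher, where 1.98% of the 16592 genes with an adjusted p were called lower and 3.46% higher. By DESeq2 without border zone mouse 40, 6 members were called lower (Acsl1, Hadhb, Hadh, Echs1, Etfa and Etfdh), where 7.67% of all genes with an adjusted p were. Without remote mouse 40 only Ces1d was called, where 0.37% of all genes were called lower, and without remote mouse 43 0 members and 0% of all genes were. Both of these leave 1 remote library, so that the spread comes from the border zone libraries alone.

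**Figure D1:**
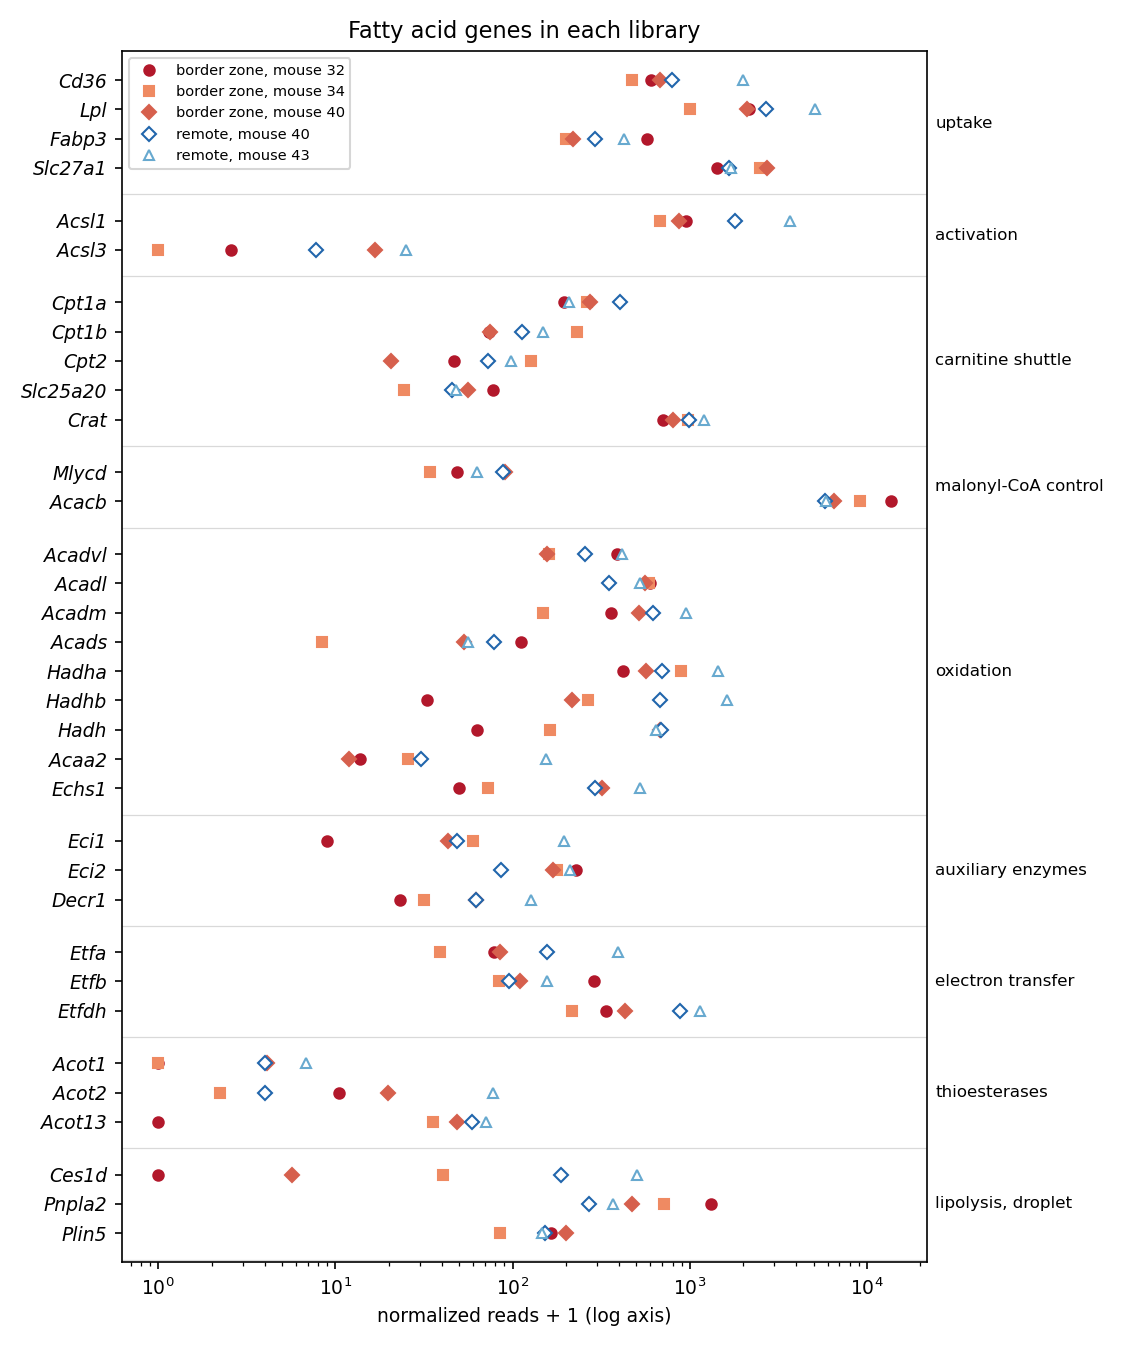
Normalized reads plus 1 (log axis) of the 34 fatty acid genes in each library, grouped by step, with filled symbols for border zone and open symbols for remote libraries. Remote mouse 43 is the rightmost point for 17 of the 32 tested genes, and the border zone points of Ces1d, Hadhb, Acsl1, Etfa and Etfdh all lie left of both remote points.

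The remote libraries also differed from each other. Mouse 43 had the higher remote value for 27 of the 32 tested members, with a median log2 difference of 0.59 over remote mouse 40, while the median of all tested genes differed by 0.01. Remote mouse 43 was the highest of the 5 libraries for 17 members (53.1%, against 26.6% of all tested genes) and the lowest for 0 members (against 23.8%). Border zone mouse 32 was the lowest library for 12 members (37.5%, against 32.5% of all tested genes) and border zone mouse 34 for 13 (40.6%, against 20.4%). Within mouse 40, 21 of 32 members had a negative log2 change, against 49% of all tested genes, and the median member lay -0.30 from the median of all genes. Without remote mouse 43 the gap between members and all genes was -0.42, and without remote mouse 40 it was -0.91.

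**Figure D2:**
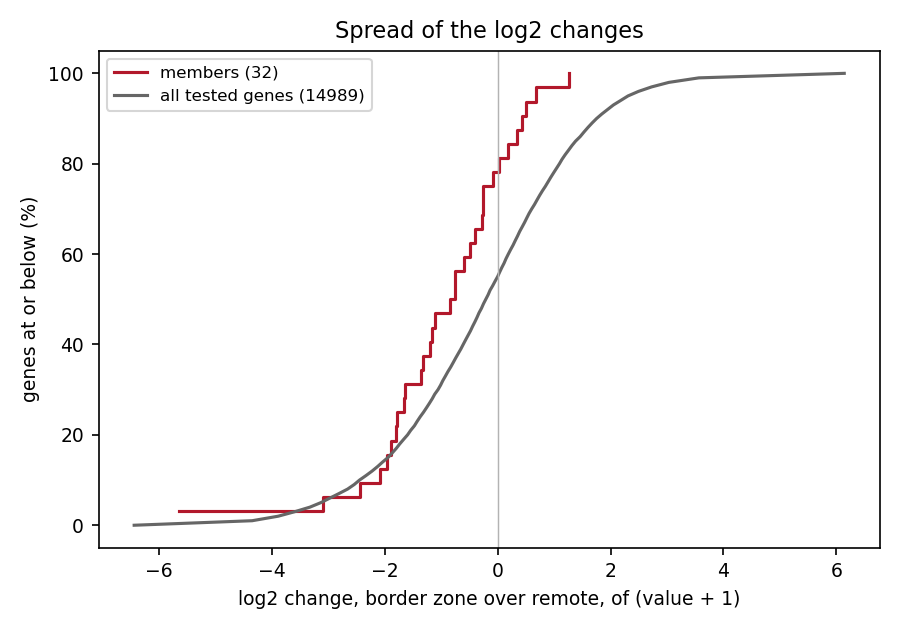
Share of genes (%) at or below each log2 change, border zone over remote, for the 32 tested members and for the 14989 tested genes. At a log2 change of -1, the member curve stands at 46.9% and that of all tested genes at 31.3%, and the medians are -0.81 and -0.21.

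The sequences before a pair of subunit genes are shown because the data below set them side by side. Hadha and Hadhb encode the alpha and beta subunits of the mitochondrial trifunctional protein, which carries out the later steps of long-chain oxidation. They lie head to head on chromosome 5 of mm10, Hadha at 30118304 to 30155162 on the minus strand and Hadhb at 30155248 to 30184593 on the plus strand. Etfa (chromosome 9, 55454508 to 55512243, minus strand) and Etfb (chromosome 7, 43444083 to 43457800, plus strand) encode both chains of the electron transfer flavoprotein, which takes electrons from the acyl-CoA dehydrogenases. The stretch between Hadha and Hadhb that no annotated exon covers (chr5:30155163-30155247, plus strand, 85 bases), and the 250 bases before the RefSeq start of Etfa (chr9:55512244-55512493, minus strand) and of Etfb (chr7:43443822-43444071, plus strand), all from RefSeq (GRCm38.p6), are given 5′ to 3′, with capitals for the GC box GGGCGG and the CCAAT box on either strand.
Hadha and Hadhb: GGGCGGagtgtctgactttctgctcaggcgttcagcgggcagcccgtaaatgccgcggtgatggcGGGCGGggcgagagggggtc
Etfa: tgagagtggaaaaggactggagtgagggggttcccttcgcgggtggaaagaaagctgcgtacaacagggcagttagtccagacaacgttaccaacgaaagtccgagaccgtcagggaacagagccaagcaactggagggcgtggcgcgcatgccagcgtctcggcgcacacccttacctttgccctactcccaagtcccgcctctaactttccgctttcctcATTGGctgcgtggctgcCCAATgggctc
Etfb: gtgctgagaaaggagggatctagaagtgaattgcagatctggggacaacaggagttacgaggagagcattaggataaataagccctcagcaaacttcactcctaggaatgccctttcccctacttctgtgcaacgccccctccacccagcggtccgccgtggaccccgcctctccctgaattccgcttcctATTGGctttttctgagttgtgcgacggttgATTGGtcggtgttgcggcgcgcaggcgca

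The intergenic stretch holds 2 GC boxes and 0 CCAAT boxes, while Etfa and Etfb hold 2 CCAAT boxes each and 0 GC boxes. Of the 27 members with a RefSeq promoter entry, 18 held a GC box in the 250 bases before a start (20 of their 31 promoters, 64.5%, against 32.7% of 32851 promoters of all genes). The CCAAT box was found in 15 members (16 of 31 promoters, 51.6%, against 33.8%). The nuclear receptor half-site AGGTCA was found in 6 of 31 promoters (19.4%, against 14%), in Acadm, Acadvl, Cd36, Cpt1a, Echs1 and Plin5. The direct repeat of that half-site with 1 base between, known to be bound by PPAR with RXR, was in 0 of 31 promoters (0.0335% of all), the ERR half-site TCAAGGTCA in 0 (0.387% of all), and the MEF2 site in 0 (3.2% of all). The AP-1 site TGANTCA was in 1, that of Plin5 (6.75% of all), the NRF1 site in 1, that of Etfdh (0.782% of all), and the E-box CACGTG in 1, that of Slc27a1 (6.02% of all). Both strands were searched, GC and CCAAT boxes can lie in the same promoter, and the half-site is contained in the repeat and in the ERR site. A match of letters describes the sequence and is no evidence of binding.

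Among the 4 uptake genes, the lipase and the fatty acid translocase were lower in every border zone library and the transport protein was not. Lpl, the lipoprotein lipase (chromosome 8, 68880491 to 68907448, plus strand), had 2165 (mouse 32), 1003 (mouse 34) and 2114 (mouse 40) normalized reads in the border zone, against 2685 and 5103 in remote mice 40 and 43. The groups did not overlap, and border zone mouse 34 was lowest (log2 change -1.15 ± 0.52, limma adjusted p = 0.269). The change was -1.62 to -0.69 when 1 library was left out, and -0.34 within mouse 40. Cd36, the translocase, had 602, 474 and 682 normalized reads in the border zone, against 788 and 1987 in remote muscle (log2 change -1.11 ± 0.54, limma adjusted p = 0.297). Here too the groups did not overlap, but the gap to remote mouse 40 was small, and within mouse 40 the log2 change was -0.21. Both genes are also used by cells other than cardiomyocytes, and the part of such cells in these values was not tested. Of the marker sums given above in normalized reads, that of macrophages was lower in every border zone library. The endothelial and adipocyte sums overlapped, and the fibroblast sum and the smooth muscle and pericyte sum were higher in every border zone library.

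Slc27a1, fatty acid transport protein 1, had 1415, 2492 and 2732 normalized reads in the border zone, against 1656 and 1711 in remote muscle. Border zone mouse 32 lay below both remote libraries and the other two above them, so the groups overlapped (log2 change 0.34 ± 0.47, limma adjusted p = 0.722). Fabp3, the heart fatty acid binding protein of the cytosol, averaged 329 ± 209 normalized reads in the border zone (SD, n = 3) and 359 ± 94.7 in remote muscle (SD, n = 2), with border zone mouse 32 highest of all 5. The direction of Slc27a1 depended on scaling, with a log2 change of -0.44 after quantile normalization and -1.09 after total-count scaling.

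Of the 2 activation genes only Acsl1 was tested. Acsl1, the main long-chain acyl-CoA synthetase of the heart (chromosome 8, 46471037 to 46536051, plus strand), had 953, 680 and 864 normalized reads in the border zone, against 1806 and 3701 in remote muscle. The groups did not overlap, and the border zone values were close together (log2 change -1.65 ± 0.49, limma adjusted p = 0.154). Within mouse 40 it was -1.06, and the authors' deposited table gave an adjusted p of 0.0658. An annotated transcript on the other strand shares 1039 exon bases with Acsl1. Acsl3, a related synthetase of lipid droplets and endoplasmic reticulum, was barely detected, at 1.58, 0 and 15.6 normalized reads in the border zone and 6.79 and 24.1 in remote muscle, with overlap, and was not tested. At 0 reads the limit of 3 reads is 3.69 normalized reads in border zone mouse 34, which covers counting error only. Per kilobase of longest transcript, the level of Acsl1 averaged 147 normalized reads in the border zone and 485 in remote muscle, while that of Acsl3 averaged 1.45 and 3.91.

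The 5 genes of the carnitine shuttle had log2 changes between -0.76 and 0.02, with a median of -0.26, and limma adjusted p between 0.657 and 0.995. Cpt1a, the liver-type carnitine palmitoyltransferase that hands acyl groups to carnitine, had 193, 262 and 273 normalized reads in the border zone, against 401 and 207 in remote muscle. Cpt1b, the muscle-type enzyme for the same step, had 72.9, 229 and 73.5 in the border zone, against 112 and 148 in remote muscle. The groups overlapped for both, and their log2 changes were -0.26 ± 0.59 and -0.26 ± 0.77. The per-kilobase ratio of Cpt1a to Cpt1b was 1.79, 0.771 and 2.50 in the border zone, against 2.40 and 0.943 in remote muscle, with overlap. A read-through gene shares 2744 exon bases with Cpt1b. It is not among the genes with deposited values, so no reads were listed for it.

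Crat, the carnitine acetyltransferase that buffers short acyl groups, was the carnitine gene with the highest level per kilobase. It had 707, 971 and 806 normalized reads in the border zone, against 988 and 1201 in remote muscle, with no overlap but with border zone mouse 34 just below remote mouse 40. Its log2 change was -0.41 ± 0.47 (limma adjusted p = 0.657), and an antisense gene shares 411 of its exon bases. Cpt2, which returns the acyl group to CoA inside the mitochondrion, and Slc25a20, the carnitine-acylcarnitine carrier, ranged from 19.6 to 127 and from 23.4 to 76.1 normalized reads over all libraries and overlapped.

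Of the malonyl-CoA pair, Acacb, the mitochondrial acetyl-CoA carboxylase that makes malonyl-CoA and so restrains the shuttle (chromosome 5, 114146535 to 114250761, plus strand), had the highest level per kilobase of all members. It had 13616, 9138 and 6545 normalized reads in the border zone, against 5771 and 5842 in remote muscle. Each border zone value exceeded both remote values, mouse 40 only slightly (log2 change 0.69 ± 0.48, limma adjusted p = 0.457, and 0.18 within mouse 40). Its sign turned under quantile normalization (-0.56) and total-count scaling (-0.74). Mlycd, the malonyl-CoA decarboxylase that removes it, had 47.5, 33.2 and 90.0 normalized reads in the border zone, against 87.6 and 62.1 in remote muscle, with overlap (log2 change -0.49 ± 0.88, limma adjusted p = 0.788).

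**Figure D3:**
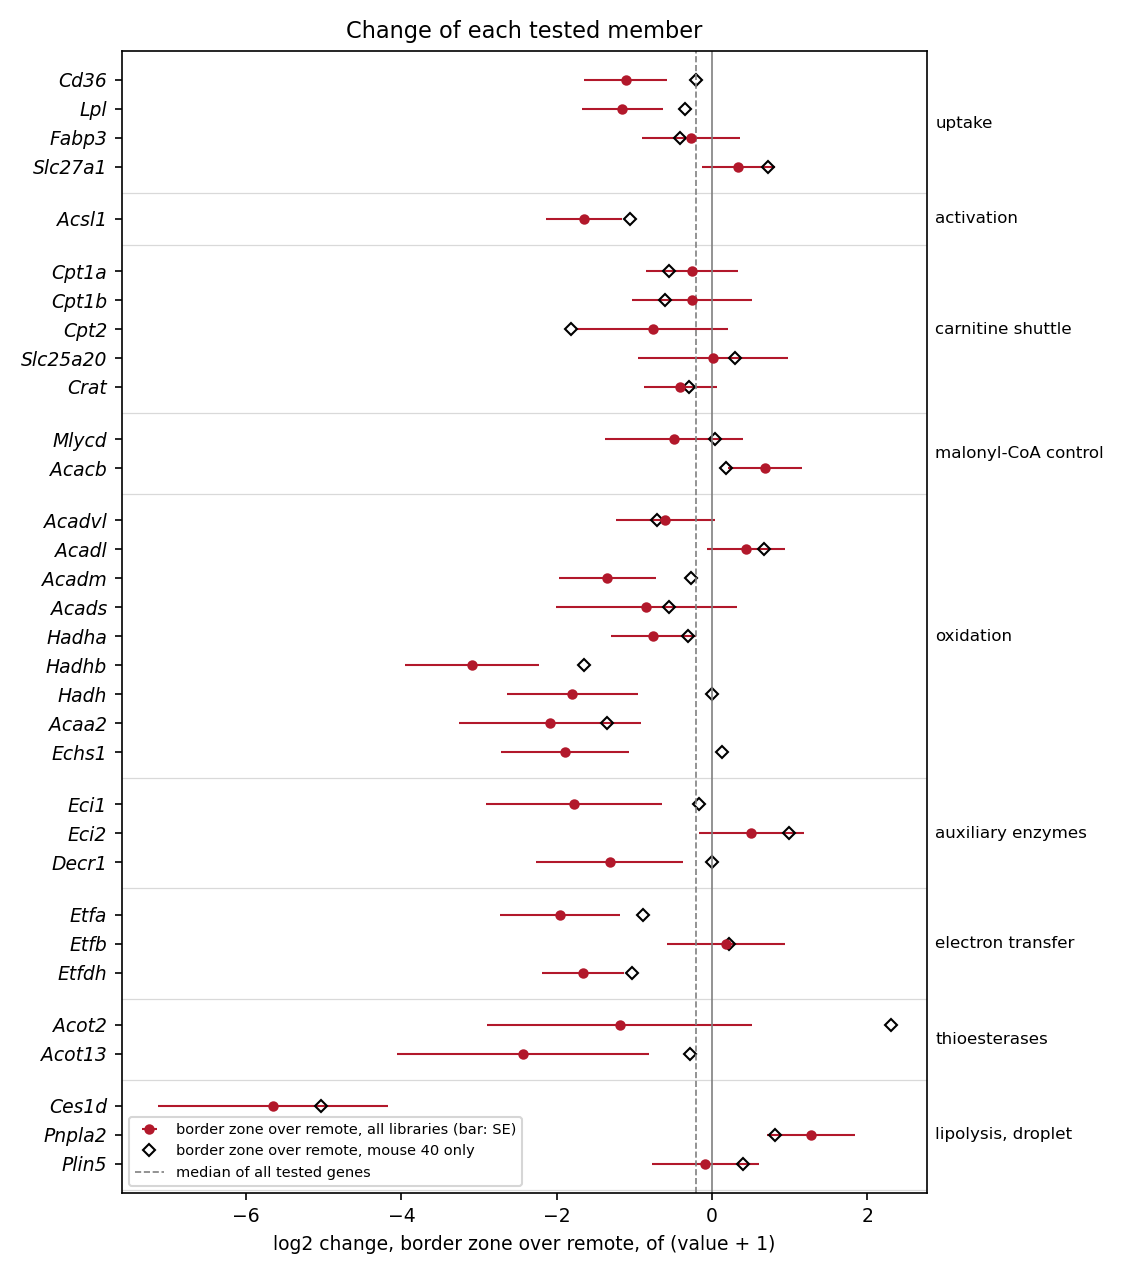
Log2 change, border zone over remote, of each of the 32 tested members on the log2(value + 1) scale, with red points and SE bars for all libraries, open diamonds for mouse 40 alone and a dashed line at the median of all tested genes. Ces1d lies farthest left in both, Hadhb is the next red point from the left and Cpt2 the next diamond, and Pnpla2 is the rightmost red point.

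In beta-oxidation, 8 of 9 members were negative, with a median log2 change of -1.35. Hadhb fell in the border zone by the authors' deposited table (log2 change -2.75, adjusted p = 0.0435). It had 31.7, 266 and 215 normalized reads in the border zone, against 675 and 1630 in remote muscle, without overlap. The border zone mouse 32 value rested on 20 recovered reads. Its limma log2 change was -3.09 ± 0.86 (limma adjusted p = 0.142), and it was -1.64 within mouse 40. Its partner Hadha had 418, 896 and 565 normalized reads in the border zone, against 701 and 1447 in remote muscle, with overlap (log2 change -0.76 ± 0.55, limma adjusted p = 0.474).

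The Hadha to Hadhb ratio does not change when each library is divided by its own size factor. Per kilobase it was 14.4, 3.68 and 2.87 in border zone mice 32, 34 and 40, against 1.13 and 0.970 in remote mice 40 and 43. Every border zone ratio was above both remote ratios, and in remote muscle the levels of both genes were near equal. The ratio was chosen after its values were seen, as 1 of 6 pairs computed, and the exact two-sided permutation p over the 10 arrangements of 3 and 2 libraries was 0.1, the smallest that design allows (0.3 adjusted over the 6 pairs). Of all other tested genes, 61.5% had a ratio to Hadhb that was higher in every border zone library and 1.15% one that was lower in every border zone library, so this pattern was not particular to Hadha.

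Among the acyl-CoA dehydrogenases, which start each turn and differ in the chain length they prefer, the long-chain and medium-chain genes had opposite signs. Acadl, the long-chain enzyme, had 596, 586 and 559 normalized reads in the border zone, against 350 and 523 in remote muscle. Its border zone values were close together and all above both remote ones (log2 change 0.44 ± 0.50, limma adjusted p = 0.659, and -0.99 under total-count scaling). Acadm, the medium-chain enzyme, had 357, 148 and 514 in the border zone, against 622 and 946 in remote muscle, all lower (log2 change -1.35 ± 0.62, limma adjusted p = 0.279). The per-kilobase ratio of Acadl to Acadm was 1.79, 4.24 and 1.16 in the border zone, against 0.602 and 0.591 in remote muscle. The exact two-sided permutation p was 0.2 (0.3 adjusted over the 6 pairs). This ratio was not planned, and the share of all genes with such a ratio to Acadm was not computed. Acadvl, the very-long-chain enzyme, and Acads, the short-chain enzyme, ranged from 156 to 412 and from 7.38 to 111 normalized reads over all libraries and overlapped between groups. Acadvl shares 1151 exon bases with Dvl2 on the other strand, and the counting is not stated to use strand.

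Hadh and Echs1 were singled out after their values were seen, since border zone mouse 40 differed from the other two border zone mice. Hadh, the short-chain hydroxyacyl-CoA dehydrogenase, had 61.8, 161 and 681 normalized reads in the border zone, against 684 and 642 in remote muscle. Echs1, the short-chain enoyl-CoA hydratase, had 49.1, 71.4 and 317 in the border zone, against 291 and 523 in remote muscle. For both, border zone mouse 40 was within the remote range, and mice 32 and 34 were far below it. Their log2 changes were -1.80 ± 0.84 and -1.90 ± 0.82 (limma adjusted p = 0.287 and 0.256), and within mouse 40 they were -0.01 and 0.12. Acaa2, the mitochondrial thiolase, was low throughout, at 11.0 to 24.6 normalized reads in the border zone and 29.4 to 153 in remote muscle.

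The auxiliary enzymes, which reshape double bonds of unsaturated fatty acids, did not share a direction. Eci1 had 7.92, 59.1 and 42.2 normalized reads in the border zone, against 47.6 and 195 in remote muscle (log2 change -1.78 ± 1.13, limma adjusted p = 0.419). Eci2 had 228, 177 and 168 in the border zone, against 84.5 and 210 in remote muscle (log2 change 0.50 ± 0.67, limma adjusted p = 0.708, and -0.92 under total-count scaling). Both are enoyl-CoA isomerases, and the groups overlapped for each. Decr1, the dienoyl-CoA reductase, ranged from 22.2 to 61.0 in the border zone and from 61.1 to 126 in remote muscle, and border zone and remote values of mouse 40 were nearly equal.

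In electron transfer, Etfa and Etfdh were lower in every border zone library and Etfb was not. Etfdh, the dehydrogenase that passes electrons on to ubiquinone (chromosome 3, 79603788 to 79629500, minus strand), had 338, 217 and 432 normalized reads in the border zone, against 885 and 1137 in remote muscle. The groups were well apart (log2 change -1.66 ± 0.53, limma adjusted p = 0.173, and -1.03 within mouse 40). Etfa had 77.7, 38.1 and 83.7 in the border zone, against 156 and 394 in remote muscle, also apart (log2 change -1.96 ± 0.78, limma adjusted p = 0.228). Etfb had 287, 82.4 and 110 in the border zone, against 94.4 and 156 in remote muscle, with overlap (log2 change 0.18 ± 0.76, limma adjusted p = 0.916, and -1.24 under total-count scaling). The authors' deposited table gave an adjusted p of 0.0849 for Etfa and 0.0893 for Etfdh.

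The per-kilobase ratio of Etfa to Etfb was 0.174, 0.297 and 0.490 in border zone mice 32, 34 and 40, against 1.06 and 1.62 in remote mice 40 and 43. The groups did not overlap, with an exact two-sided permutation p of 0.1, the smallest possible (0.3 adjusted over the 6 pairs). Of all other tested genes, 18.6% had a ratio to Etfb that was lower in every border zone library and 9.4% one that was higher. The ratio was also chosen after its values were seen. An annotated gene shares 617 exon bases with Etfb on the same strand. That gene is not among those with deposited values, so no reads were listed for it.

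**Figure D4:**
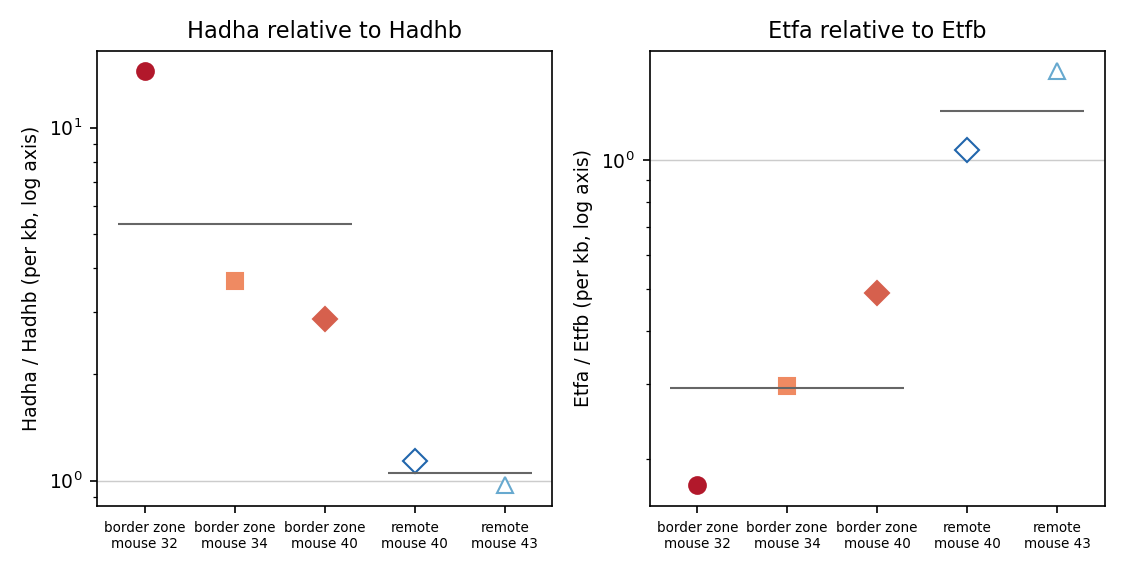
Per-kilobase ratio (log axis) of Hadha to Hadhb (left) and of Etfa to Etfb (right) in each library, with lines at the geometric mean of each group. The Hadha ratio is 2.87 to 14.4 in the border zone and 0.970 to 1.13 in remote muscle, and the Etfa ratio is 0.174 to 0.490 and 1.06 to 1.62.

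The thioesterases, which split acyl-CoA back to fatty acid and CoA, were low. Acot13 had 0, 34.5 and 47.7 normalized reads in the border zone, against 58.1 and 70.2 in remote muscle (log2 change -2.43 ± 1.62, limma adjusted p = 0.436). The size of this change rested on border zone mouse 32, listed at 0, without which it was -0.64, and within mouse 40 it was -0.28. Acot2, the mitochondrial enzyme, had 9.51, 1.23 and 18.8 in the border zone, against 3.02 and 76.7 in remote muscle, and its log2 change was -1.19 ± 1.70 with all libraries and 0.95 without remote mouse 43. Acot1, its cytosolic relative, had 0, 0 and 3.13 in the border zone, against 3.02 and 5.85 in remote muscle, and was not tested. The longest transcripts of Acot1 and Acot2 are 94.6% identical over 882 aligned bases, so reads could be split between them and both are uncertain.

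The lipolysis genes held both the most negative and the most positive log2 change of the members. Ces1d, a carboxylesterase that hydrolyses triglyceride (chromosome 8, 93166068 to 93197838, minus strand), had 0, 39.4 and 4.69 normalized reads in the border zone, against 186 and 504 in remote muscle. Its border zone values came from 0, 32 and 6 recovered reads, and the groups were far apart. It fell by the authors' deposited table (log2 change -4.55, adjusted p = 0.0125), and limma gave -5.65 ± 1.48 (limma adjusted p = 0.14). Within mouse 40 it was -5.04. Ces1d is also a gene of fat. The 8 adipocyte markers summed to 0.755 and 10.2 normalized reads in remote mice 40 and 43, with 7 and 5 of the 8 at 0, and their part in the Ces1d values was not tested.

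Pnpla2, the adipose triglyceride lipase that opens the lipid droplet (chromosome 7, 141455198 to 141460743, plus strand), was higher in the border zone by size. It had 1309, 712 and 471 normalized reads in the border zone, against 267 and 369 in remote muscle. The groups did not overlap (log2 change 1.27 ± 0.57, limma adjusted p = 0.266), and under total-count scaling the change was -0.15, still above the all-gene median of -1.58. Plin5, a droplet coat protein that holds that lipase in check, averaged 149 ± 59.6 in the border zone (SD, n = 3) and 149 ± 4.44 in remote muscle (SD, n = 2). Its values were 163, 83.7 and 200 in the border zone, against 152 and 145 in remote muscle, with overlap.

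As a share of all recovered reads, the 34 members together made up 629, 750 and 1311 RPM in border zone mice 32, 34 and 40, against 2010 and 3658 in remote mice 40 and 43. Every border zone library lay below both remote ones, as 49.1% of all tested genes did under total-count scaling. In normalized reads these sums were 24933.5, 19424.7 and 19201 in the border zone, against 20392.9 and 30276.8 in remote muscle, with overlap. Of these, Acacb alone gave 13616, 9138 and 6545 in the border zone, against 5771 and 5842 in remote muscle, so the overlap leans on that gene. Acacb and Mlycd alone made up 345, 354 and 453 RPM in the border zone, against 577 and 713 in remote muscle, and the 9 beta-oxidation genes 51.1, 89.6 and 210, against 363 and 765. A read share also moves with the few most abundant genes, which took more of the border zone reads.

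**Figure D5:**
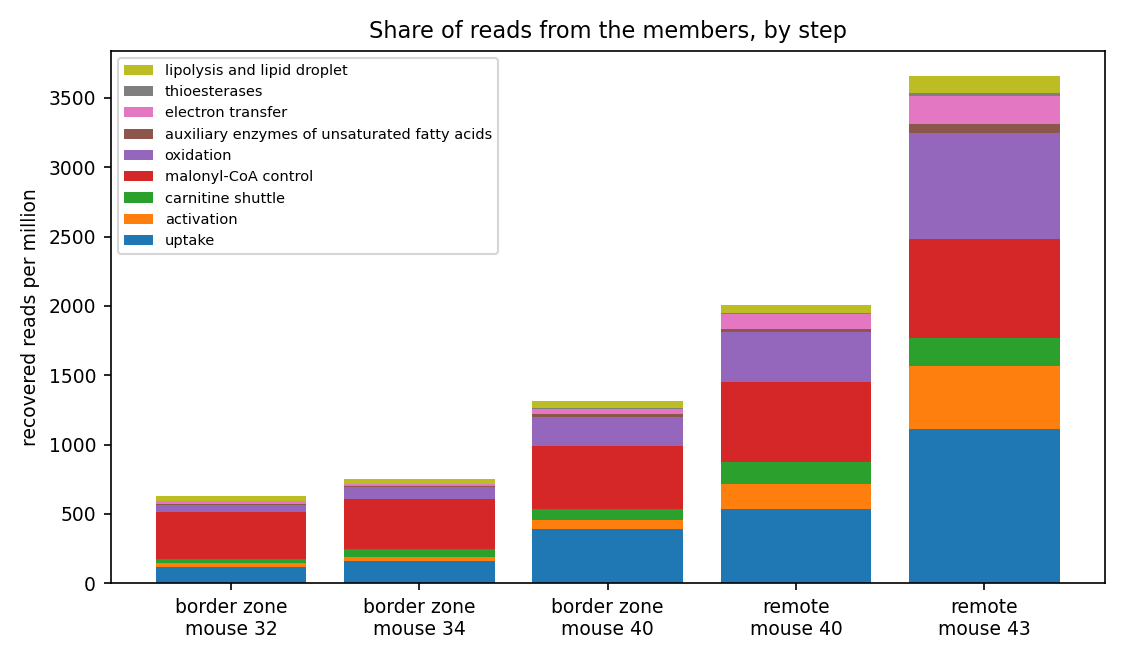
Recovered reads (RPM) from the 34 members in each library, stacked by step, with border zone libraries on the left. The bars reach 629, 750 and 1311 in the border zone and 2010 and 3658 in remote muscle, and malonyl-CoA control makes up the largest part of each border zone bar.

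Of 70 further genes of fatty acid use, 64 were tested and 48 had a negative log2 change, against 55% of all tested genes. By limma 0 of them passed in either direction. In the authors' deposited table, 1 of the 65 with an adjusted p was called higher and 1 lower. Of all genes with an adjusted p there, 3.46% were called higher and 1.98% lower. Acsf2, a mitochondrial acyl-CoA synthetase, was the gene called higher, with 312, 255 and 529 normalized reads in the border zone, against 55.1 and 97.9 in remote muscle (authors' deposited table, log2 change 2.26, adjusted p = 0.0283). Slc16a1, a transporter of lactate and ketone bodies, was the gene called lower, with 63.4, 68.9 and 110 in the border zone, against 243 and 504 in remote muscle (authors' deposited table, log2 change -2.21, adjusted p = 0.0358).

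By list, 8 of 12 tested genes of other uptake and activation steps were negative, 11 of 18 of other mitochondrial acyl-CoA enzymes, 12 of 14 of peroxisomal oxidation, 13 of 15 of other lipid droplet and triglyceride genes, and 4 of 5 of ketone body use. The gene with the highest mean of the droplet list, Plin4, a droplet coat protein, had 31161, 16911 and 10079 normalized reads in the border zone, against 6358 and 3597 in remote muscle, with no overlap (log2 change 1.87 ± 0.56, limma adjusted p = 0.158). Vldlr, the very-low-density lipoprotein receptor, had 2219, 1255 and 2645 in the border zone, against 4127 and 4853 in remote muscle (log2 change -1.20 ± 0.48, limma adjusted p = 0.229). For Oxct1, a gene of ketone body use, the log2 change was -1.07 ± 0.54 (limma adjusted p = 0.316). For the thioesterase gene Acot11 it was 0.04 ± 0.60 (limma adjusted p = 0.979).

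Across the 32 tested members, the log2 change ran with the GC content of the longest transcript (Spearman rho = 0.48), as it did less steeply over 14847 tested genes (rho = 0.32). For the mean level rho was 0.25 among members and 0.34 over all tested genes, and for transcript length 0.03 and 0.16. These values describe genes that share the same 5 libraries, and the part of GC content in the result was not tested.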

How the data were processed

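The authors deposited, per library and gene, a never-negative signal, reads divided by a size factor. STAR, DESeq2 and mm10 appear in the submitters' processing notes; neither a counting tool nor an annotation is given in the sources used here. Dividing each column by its lowest value above 0 gave whole numbers for 100% of values (tolerance 0.01), which were taken as reads. The authors' deposited comparison table gives log2 fold changes, border zone over remote when set against the values per library, p-values and adjusted p-values. Lengths, deposited by the authors in bases, are those of the longest transcript.

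The main test, two-sided with a mean-variance trend, used limma (version 3.58.1, under R 4.3.3) for log2(value + 1) over genes with a mean of at least 10, with Benjamini-Hochberg adjusted p under 0.05. Errors of log2 changes are SE. edgeR 4.0.16 and DESeq2 1.42.0 ran on recovered reads. The limma, edgeR and DESeq2 fits, without the alternatives, were also run on simulated counts with a fixed spread and large planted changes. That checks the code, and does not show how the fits perform at the spread of these libraries. The p-values measure the spread between libraries, with both libraries of mouse 40 taken as independent. Positions come from GENCODE M21, whose assembly is that of mm10.

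Members, lists and tests were chosen with earlier results of these data known. Every member is named. Values per library are given for called members, the leading 2 per step by level per kilobase, paralog and subunit pairs, and the largest rise and fall. Cd36, Etfa, Hadh and Echs1 were added after their values were seen. Of other lists, called genes and the most abundant gene are named, except 1 that is not reported here. Scaling, filter, pseudocount, test and libraries were varied.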

Additional observations from a re-analysis of the deposited data

How the results depend on the processing

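No paired analysis was possible because the groups share only mouse 40. By limma and edgeR no alternative called a member. DESeq2 called 2 members lower, and 1 other pathway gene higher and 1 lower, where 3.46% of all genes were called higher and 1.98% lower. By DESeq2 without 1 library, an alternative chosen after seeing the data like the no-overlap counts and the subunit ratios, the members called lower numbered 0 to 6, where 0% to 7.67% of all genes were called lower, and 2 with only mice 40 and 43, where 1.36% were. Under total-count scaling 7 members changed sign, where the all-gene median was -1.58 and all 7 lay above it. The gap between members and all genes stayed negative, at -0.84 after quantile normalization, -0.30 in mouse 40 alone and -0.91 to -0.42 without 1 library. Total-count scaling put 27 members lower without overlap, against 49.1% of all tested genes, and 0 higher, against 3.56%. Quantile normalization put 14 lower without overlap, against 20.3%, and 1 higher, against 18.2%. For the other changed signs the cause was not tested. They included members near 0 and members far from it with all libraries, such as Echs1 (-1.90), Hadh (-1.80) and Acot2 (-1.19).

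Under total-count scaling the log2 change was -1.09 for Slc27a1, -1.38 for Slc25a20, -0.74 for Acacb, -0.99 for Acadl, -0.92 for Eci2, -1.24 for Etfb and -0.15 for Pnpla2. After quantile normalization it was -0.44 for Slc27a1 and -0.56 for Acacb, under TMM scaling -0.033 for Slc25a20, and by DESeq2 0.0060 for Plin5. With only mice 40 and 43 it was 0.28 for Mlycd, 0.040 for Hadh, -0.15 for Etfb, 0.16 for Acot2 and 0.43 for Plin5. In mouse 40 alone it was 0.039 for Mlycd, 0.12 for Echs1, 2.30 for Acot2 and 0.40 for Plin5. Without 1 library it ran from -0.81 to 0.011 for Cpt1b, -0.34 to 0.49 for Slc25a20, -0.35 to 0.54 for Etfb, -0.76 to 0.0032 for Fabp3, -1.65 to 0.22 for Acads, -0.34 to 0.28 for Plin5, -0.74 to 0.21 for Cpt1a, -0.15 to 1.15 for Eci2 and -3.33 to 0.95 for Acot2. The Hadha to Hadhb ratio differed by 1.63 to 2.80 (log2) and that of Etfa to Etfb by -2.53 to -1.78 without 1 library. Low read numbers limit Ces1d, the thioesterases and Hadhb in border zone mouse 32, among others. Eci1 had 5 recovered reads in border zone mouse 32 and Acads 6 in border zone mouse 34. Acaa2 had 8, 20 and 14 in border zone mice 32, 34 and 40.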
